A study of Homo sapiens with 15 samples.

Results

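The replication-dependent histone genes were described in 15 bulk RNA-seq libraries from a cardiac differentiation of H1, an established human embryonic stem cell line. Members were the rows of the gene table whose symbol names an H1 linker histone from H1-1 to H1-6 or a clustered H2A, H2B, H3 or H4 gene. This rule gave 66 of 60605 genes, namely 6 H1, 16 H2A, 17 H2B, 13 H3 and 14 H4 genes. Of these, 55 lie on chromosome 6 between 25726063 and 27893891 and 11 lie on chromosome 1 between 149782689 and 149887965 (hg38).

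All cells were wild type, were induced with the WNT activator CHIR99021 on day 0 and received insulin on day 1, and the libraries of days 0, 1 and 2 are shared by all arms. NP-ctrl cells stayed in their wells and differentiated spontaneously (NP, not passaged). In the NP-IWP2 arm, which was likewise left in its wells, IWP2 was given from day 2 to block the secretion of WNT ligands. From day 5 on no IWP2 was given. Passaged cells were dissociated with EDTA on day 2 and replated at lower density without a WNT inhibitor. Days 3, 5, 7 and 10 are covered by a single library per arm. No group thus has a biological replicate, and the arms differ in cell density as well as in dissociation. The paper also reports adding a ROCK inhibitor, used for survival after dissociation, in its later differentiation experiments, so the arms may differ in this too. Its replating medium was used with or without insulin, and which was used here is not stated. Total counts ranged from 13254723 to 20250115 per library. The labelled cell states were checked against their markers. POU5F1, a pluripotency factor, was at 625.29 FPKM (reads per exon length and sequencing depth) on day 0, and TNNT2, the cardiac troponin T gene, was at 0.02 FPKM on day 0. On day 10 TNNT2 reached 21.83 FPKM in NP-ctrl, 42.75 with IWP2 and 55.5 after passaging. In a bulk library, fewer cells in S phase and less histone RNA per cell cannot be told apart.

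Replication-dependent histones package newly made DNA, and their genes are transcribed mainly in S phase under the coactivator NPAT. Their transcripts are short, mostly lack introns, and end in a conserved stem-loop that is bound by SLBP in place of a poly(A) tail. Some of these genes also give polyadenylated transcripts when a poly(A) signal downstream of the stem-loop is used, and this form can persist in cells that have stopped dividing. In these libraries cDNA was made with a low-input synthesis kit of the kind that primes on poly(A) tails, a design in which RNA without a tail is captured poorly.

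The stem-loop was present in the genome within 100 bases after the stop codon in all 66 members, and it began 23 to 68 bases after the stop codon. It had 10 distinct sequences, and 1 of them occurred in 38 members. The stem-loops below are from the GENCODE coding annotation and the hg38 genome, are shown as DNA of the sense strand, and belong to the members on which the results turn. Capitals mark the 16 bases of the stem-loop.

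H2BC21 (chr1:149886183-149886208, minus strand): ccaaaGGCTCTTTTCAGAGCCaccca

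H2AC20 (chr1:149887386-149887411, plus strand): ccaaaGGCTCTTTTTAGAGCCaccca

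H3C10 (chr6:27810511-27810536, plus strand): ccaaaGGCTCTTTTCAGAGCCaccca

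H3C8 (chr6:26270918-26270943, minus strand): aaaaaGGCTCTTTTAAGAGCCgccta

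H2BC9 (chr6:26252050-26252075, plus strand): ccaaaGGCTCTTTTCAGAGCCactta

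H4C12 (chr6:27831173-27831198, minus strand): caaaaGGCCCTTTTTAGGGCCcccac

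H1-2 (chr6:26055739-26055764, minus strand): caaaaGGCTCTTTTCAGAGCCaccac

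H2BC21 and H3C10 carried the same stem-loop and the same flanking bases, although H2BC21 was higher and H3C10 lower on day 10 than on day 3. All 14 H4 members, and no member of another class, had a stem-loop that opens with GGCCC and closes with GGGCC. The members differed in where the gene model used for counting ended. In 38 members the gene ended within 20 bases of the stem-loop, and in 23 it ran more than 100 bases past it. Of these 23 members, 16 had a poly(A) signal (AATAAA or ATTAAA, sense strand) in the last 40 bases of the gene. Over all 66 members 19 had such a signal, against 72.8% of the other 3015 protein-coding genes on chromosomes 1 and 6.

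Most of the histone reads came from the longer gene models. Those 23 members held 8224 of the 11122 member counts, or 73.9%, and the remaining 43 held 26.1%. A longer model also collects more reads. Per length the order depended on the measure. The median of the mean FPKM was 0.397 in the 23 members and 0.145 in the 43, whereas the summed FPKM was higher in the 43 members in 11 of 15 libraries, for example 34.3 against 27.8 on day 0. On day 10 the 43 members were at 17.5 in NP-ctrl, 13.6 with IWP2 and 20.5 after passaging, below the 23 members at 22.4, 27.6 and 41.2. H1-2 and H2BC12 are exceptions, since both are known to give polyadenylated transcripts yet their gene models in the table stop at the stem-loop.

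Histone transcripts were scarce in every library. The members held 29.6 to 91.5 CPM (their counts relative to the total count), with a 95% Wilson interval of 27.3 to 32.0 for the lowest library, day 2. Between 32 and 52 of the 66 members had at least 1 count in a library, and 5 members had none in any library. In 21 members no library exceeded 3 counts, which is the count floor used here, and 11 members exceeded 3 counts in all libraries. Intervals and floors cover counting error only. Reads were nevertheless above the level of silent genes. Summed counts per summed length gave 0.441 to 1.36 FPKM for the members and 0.00614 to 0.0234 FPKM for 399 olfactory receptor genes, a comparison chosen after the values were seen.

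Expression was uneven among the members. H2BC21, an H2B gene, held 22.1% of all member counts, and the 5 most counted members held 54.1%. By mean FPKM over the 15 libraries the leading members were H1-2 (5.08) in the H1 class, H2AC6 (3.29), H2AC20 (1.48) and H2AC11 (1.05) among H2A, H2BC12 (7.58), H2BC21 (4.93) and H2BC5 (2.5) among H2B, H3C10 (0.971), H3C6 (0.796) and H3C2 (0.609) among H3, and H4C9 (1.9), H4C8 (0.840) and H4C12 (0.717) among H4. In the H1 class, the next members H1-4 (0.239) and H1-3 (0.196) were far below H1-2. H2BC4, which is also listed as giving polyadenylated transcripts, had a mean of 0.591 FPKM. Coding sequences were identical within the pairs H2AC18 and H2AC19, H3C14 and H3C15, H4C14 and H4C15, and H4C11 and H4C12. How reads that fit both copies were counted is not given in the sources used here, so the values of these 8 members are uncertain. The gene spans of 32 members also overlap another annotated gene, and whether counting used the strand is not stated.

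The first question was how the histone genes changed while the cells left pluripotency on days 0 to 2. Their summed level was 62.1 FPKM on day 0, 33.8 on day 1 and 35.2 on day 2. As a share of all counts, the day 2 library was at 0.453 times day 0 (95% exact interval 0.410 to 0.501). The lowest ratio of the classes was that of H3, which went from 8.62 FPKM on day 0 to 3.40 on day 1 and 2.40 on day 2. H4 went from 9.31 to 5.21 and 3.76, H2A from 18.2 to 9.37 and 9.19, and H2B from 19.3 to 12.4 and 12.5. The linker class was the exception, with 6.69 FPKM on day 0, 3.46 on day 1 and 7.41 on day 2, and nearly all of it was H1-2.

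Single members were compared on log2(FPKM + 1) among genes with at least 1 FPKM in at least 1 library, which kept 26 of the 66 members and 21206 of all genes. H1-3, with a highest level of 1.03 FPKM, lay just inside this limit, and H2BC17, with 0.88 FPKM, just outside it. Between day 0 and day 2, 7 of the 26 members were lower by at least 1 on this scale and none was higher, where 5.17% of all genes were lower and 6.57% higher. With 1 library on each side there is no test. H3C10 had 51 counts on day 0 and 5 on day 2, a ratio of 0.0822 (95% exact interval 0.0256 to 0.205). H2AC6 had 143 and 51 counts, a ratio of 0.299 (0.213 to 0.414). The others were H2AC11, H2BC5, H2BC11, H3C1 and H4C8. Of these, H2BC11 reached 1 FPKM only on day 0, so it entered the comparison through the day on which it was high. The S phase genes, a list of 43 replication genes such as PCNA, MCM2 and RRM2, went from 1363 to 926 summed FPKM over the same days.

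**Figure D1:**
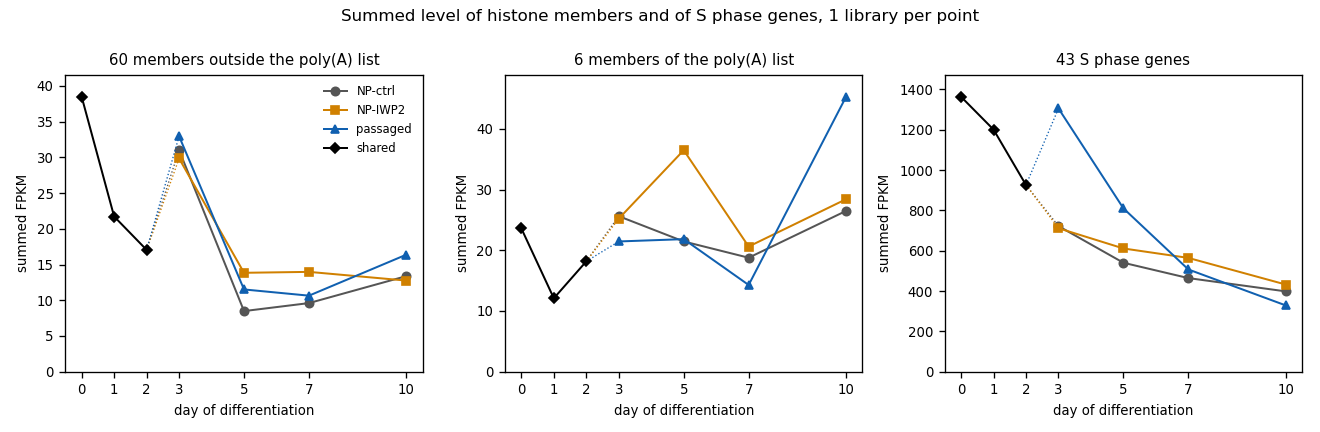
Summed FPKM against day of differentiation for the 60 members outside the list of polyadenylated transcripts, the 6 members on that list and the 43 S phase genes, with 1 point per library and dotted lines from the shared day 2 library to each arm. The 60 members lay between 29.85 and 32.96 FPKM in all arms on day 3, whereas the S phase genes were at 1305.5 in passaged cells and at 711.4 and 721.93 in the other arms.

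The second question was what happened on day 3, the first day after the arms were separated. Histone levels were again higher in every arm, and the arms were close to each other. The summed level was 56.6 FPKM in NP-ctrl, 55.1 with IWP2 and 54.4 after passaging, against 35.2 on day 2. As a share of all counts, NP-ctrl was at 1.94 times day 2 (95% exact interval 1.75 to 2.16), NP-IWP2 at 1.88 (1.69 to 2.10) and passaged cells at 1.92 (1.73 to 2.14). All 3 ratios share the day 2 library, so they are not independent of each other. The ratio was highest in the H3 class, which was at 2.40 FPKM on day 2 and at 8.59 in NP-ctrl, 8.58 with IWP2 and 8.25 after passaging on day 3.

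In the NP-ctrl arm, 4 of 26 members were higher on day 3 than on day 2 by at least 1 on the log2(FPKM + 1) scale and none was lower (all genes 4.36% higher and 4.35% lower). These were H2AC6, H2BC5, H3C2 and H3C10. Of these, H3C2 reached 1 FPKM only in day 3 libraries, so it entered the comparison through the day on which it was high. In the passaged arm 4 members were higher and none was lower (all genes 6.78% higher and 5% lower), namely H2AC11, H2BC5, H3C10 and H4C8. H3C10 had 5 counts on day 2, and on day 3 it had 44 in NP-ctrl, 31 with IWP2 and 32 after passaging. H2BC5 had 10 counts on day 2 and 51, 31 and 35 counts in the same order on day 3. Both genes were higher in all 3 arms by intervals that exclude 1. All 3 intervals share the day 2 counts, and the genes were picked by this difference.

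The S phase genes did not move in the same way between day 2 and day 3. Their sum was 926 FPKM on day 2, and on day 3 it was 722 in NP-ctrl, 711 with IWP2 and 1306 after passaging. PCNA, the replication clamp, was at 122.31 FPKM on day 2, then 88.63 in NP-ctrl, 80.91 with IWP2 and 188.95 after passaging. MCM2, a subunit of the replicative helicase, was at 31.16, 17.16, 21.26 and 44.07 FPKM in the same libraries. MCM5, another subunit of that helicase, was at 22.12, 17.40, 17.73 and 33.51 FPKM. Thus passaged cells had 1.81 times the summed S phase FPKM of NP-ctrl on day 3, and 0.961 times the summed histone FPKM. The histone ratio taken on counts was 0.991 (95% exact interval 0.900 to 1.09).

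Histone classes differed in direction between these 2 libraries. H1 was at 0.552 times NP-ctrl in passaged cells (0.404 to 0.745, 65 and 140 counts) and H4 at 1.65 times (1.27 to 2.15, 140 and 101 counts). H2A, H2B and H3 had intervals that include 1. Of single members, H2AC17 was lower in passaged cells, with 4 counts against 18, and no member was higher by at least 1 on the log2(FPKM + 1) scale (all genes 3.48% lower and 5.02% higher). The passaged day 3 library had the lowest share of counts from the mitochondrial genome, 1.53%, where NP-ctrl was at 4.80%. Its part in these differences was not tested.

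**Figure D2:**
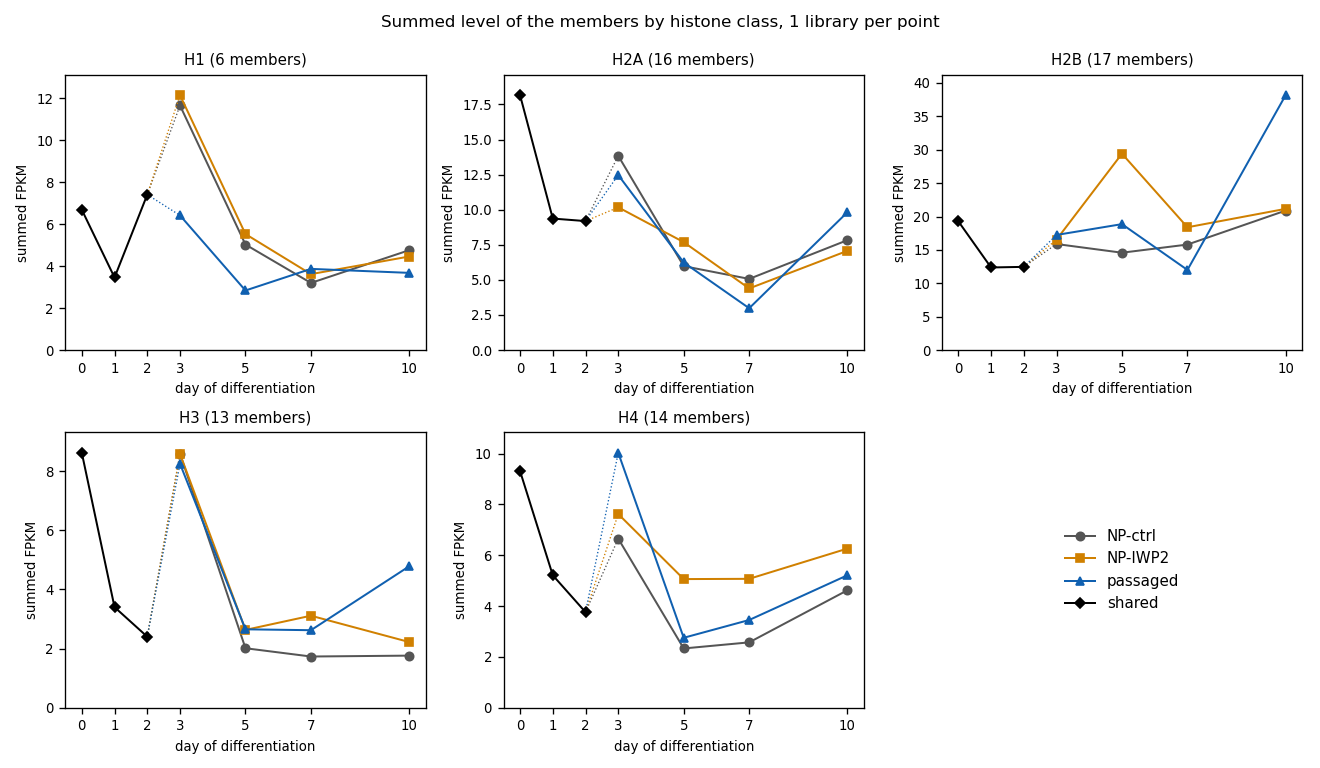
Summed FPKM of the members of each histone class against day of differentiation, with 1 point per library. The H3 panel drops to 2.40 FPKM on day 2, is between 8.25 and 8.59 on day 3 in all arms and is below 5 on later days, whereas H2B is highest in passaged cells on day 10 at 38.17 FPKM.

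After day 3 the levels of the members parted. The 60 members outside the list of polyadenylated transcripts had summed levels of 29.9 to 33.0 FPKM on day 3, 8.48 to 13.8 on day 5, 9.60 to 14.0 on day 7 and 12.8 to 16.4 on day 10. The 6 listed members, which are H1-2, H2AC6, H2BC4, H2BC5, H2BC12 and H2BC21, were at 21.5 to 25.6, 21.5 to 36.5, 14.3 to 20.6 and 26.5 to 45.3 FPKM on the same days. The listed members made up 35.8% to 51.6% of the histone FPKM in the libraries of days 0 to 3 and 57.3% to 73.4% in those of days 5 to 10. H2B made up 28.0% to 31.7% of histone FPKM on day 3 and 51.4% to 61.9% on day 10.

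Day 10 was compared with day 3 over the 3 arms with the quasi-likelihood test of edgeR, with Benjamini-Hochberg adjustment over 21206 genes. The arms stand in for replicates here and come from 1 differentiation. H2BC21 was higher on day 10 and H3C8, H3C10, H2BC9, H4C12 and H2BC8 were lower, which is 1 of 26 members higher, where 17.9% of all genes were higher, and 5 of 26 lower, where 17.1% were. With 5 of 26, the share of members called lower was close to that of all genes. The 40 members below the filter were not tested, and a member with a level of at least 1 FPKM only on day 3 entered the test because it was high there.

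H3C10 (chr6:27810064-27811300) encodes a core histone H3. On day 3 it was at 2.19 FPKM in NP-ctrl, 1.86 with IWP2 and 1.89 after passaging, and on day 10 at 0.54, 0.15 and 0.27 in the same order. The lowest day 3 library was above the highest day 10 library, and day 0 was higher still at 2.43 FPKM. The fitted log2 change was -2.56 (SE 0.54, adjusted p = 0.00382). H3C8 (chr6:26269405-26271815), another H3 gene, was at 0.87, 0.55 and 1.24 FPKM on day 3 and at 0.03, 0.10 and 0.11 on day 10, a log2 change of -3.40 (SE 0.72, adjusted p = 0.00394). Its day 10 values rest on 1, 4 and 4 counts.

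H2BC9 (chr6:26251651-26253710), an H2B gene, was at 1.67, 2.09 and 1.77 FPKM on day 3 and at 0.72, 0.28 and 0.22 on day 10. Its log2 change was -2.07 (SE 0.58, adjusted p = 0.0175). H2BC8 (chr6:26215159-26216692) was at 0.80, 1.06 and 1.33 FPKM on day 3 and at 0.44, 0.08 and 0.09 on day 10, a log2 change of -2.36 (SE 0.78, adjusted p = 0.0360). H4C12 (chr6:27831174-27831560), an H4 gene, was at 1.43, 3.45 and 1.32 FPKM on day 3 and at 0.38, 0.16 and 0 on day 10, a log2 change of -3.46 (SE 1.09, adjusted p = 0.0292). H4C12 shares its coding sequence with H4C11, which was at 0.95, 0 and 0.94 FPKM on day 3 and did not pass the test (log2 change -2.98, adjusted p = 0.183). In each of the genes called lower the day 3 and day 10 libraries did not overlap, while those of H4C11 did. Over the 26 members, 12 had all day 10 libraries below all day 3 libraries, where 22.9% of all genes had, and 2 had them all above, where 18.9% had. The 12 include H2BC8, H3C2 and H3C8, which reached 1 FPKM only in day 3 libraries. The count is thus no support for a fall.

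H3C8 and H3C10 were called in 13 of 14 alternative analyses, and the exception in both was a stricter filter that left them out. H3C8 and H2BC8 reached 1 FPKM only in day 3 libraries, so they entered the test through the day on which they were high. The calls of the other 3 members called lower rested on single libraries. H2BC9 was lost without NP-ctrl day 3, NP-IWP2 day 3, NP-IWP2 day 10 or passaged day 10, and H2BC8 and H4C12 were lost without NP-IWP2 day 3, passaged day 3, NP-IWP2 day 10, passaged day 10 or day 7, and were left out by the stricter filter. Without 1 library, 3 to 6 members were called, with 3 when NP-IWP2 day 3 or passaged day 10 was left out. Extended gene models that end at a poly(A) signal were those of H3C10, H3C8 and H2BC9, called lower, and of H2BC21, called higher. H2BC8, also called lower, had an extended model without such a signal, and the model of H4C12 ended at its stem-loop. The part of the gene model in the direction of change was not tested.

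**Figure D3:**
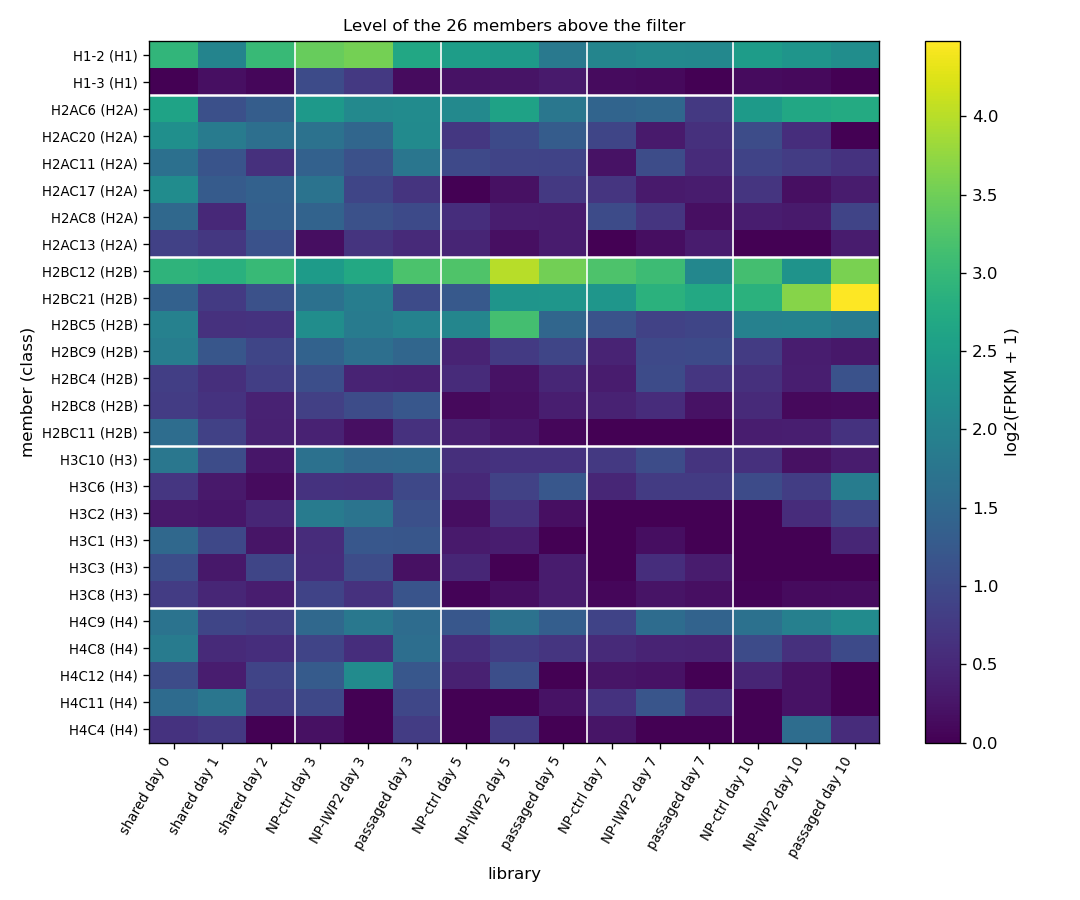
Level of the 26 members above the filter, as log2(FPKM + 1), in each library, with members grouped by class and ordered by mean level within a class. On day 10 H2BC21 reaches 21.3 FPKM in passaged cells and 11.68 in NP-IWP2, while H2BC12 is above it in NP-ctrl at 7.8 against 6.23, and H3C8 and H3C2 stay below 1 FPKM in each library from day 5.

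H2BC21 (ENSG00000184678, chr1:149884459-149886652, minus strand) was the only member called higher. It was at 1.61 FPKM on day 0, 0.69 on day 1 and 1.15 on day 2. On day 3 it was at 2.19 FPKM in NP-ctrl, 2.74 with IWP2 and 1.03 after passaging. On day 5 the arms were at 1.37, 4.03 and 4.12, on day 7 at 4.09, 6.23 and 5.53, and on day 10 at 6.23, 11.68 and 21.3 FPKM. All day 10 libraries were above all day 3 libraries, and the log2 change was 2.63 (SE 0.50, adjusted p = 0.00218). This call was kept in all 14 alternative analyses, with log2 changes from 2.04 to 3.20. The gene model used for counting extends 1729 bases past the stem-loop and ends at a poly(A) signal. H2BC21 held 1.89% to 4.98% of the histone FPKM on day 3 and 15.6% to 34.5% on day 10.

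The arms differed in H2BC21 on day 10. Passaged cells had 711 counts and NP-ctrl 184, a ratio of 3.42 (95% exact interval 2.90 to 4.04), and NP-IWP2 had 406, a ratio to NP-ctrl of 1.88 (1.57 to 2.24). These are pairs of single libraries. Of the 26 members, on day 10 passaged cells exceeded NP-ctrl in H2BC21 and lay under it in H2AC20 by at least 1 on the log2(FPKM + 1) scale (all genes 5.67% higher and 11.7% lower). In H2BC21 on day 3 the order of these 2 arms was the reverse, with passaged cells at 0.472 times NP-ctrl (0.301 to 0.724). The passaged day 10 library had the highest mitochondrial share of all libraries, 10.3%, against 3.72% in NP-ctrl, and the highest TNNT2 level. Markers of other cell types moved the opposite way. The sum of a list of 10 such markers, among them AFP and COL1A1, was 28.6 FPKM in the passaged library of day 10, 1124 in the IWP2 library and 3678 in the control library, and FOXA2 and APOA2 were at 0 in the passaged one. Between day 3 and day 10, 7 of these 10 markers were called higher and 1 lower, and passaged cells were called lower than NP-ctrl in 4 of them. Of 10 stage markers, 3 were called higher and 6 lower on day 10. The part of these differences in the H2BC21 values was not tested.

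H2AC20 (ENSG00000184260, chr1:149886918-149887411, plus strand) is an H2A gene that lies head to head with H2BC21, with 335 bases between the start codons. It was at 3.70 FPKM on day 0, and on day 3 at 2.24 in NP-ctrl, 1.80 with IWP2 and 3.40 after passaging. On day 10 it was at 1.05, 0.51 and 0 FPKM, which is 7, 4 and 0 counts. The fitted change did not pass the edgeR test reported (log2 change -2.20, SE 0.88, adjusted p = 0.0763). It was called lower by DESeq2 (log2 change -2.27, adjusted p = 0.0455) and by limma (log2 change -1.23, adjusted p = 0.0149). With other filters edgeR called it too, without a filter (adjusted p = 0.0402) and among genes with a mean FPKM of at least 1 (adjusted p = 0.0497). A count of 0 allows up to 3 counts. The gene model of H2AC20 ends at its stem-loop, with no poly(A) signal in the last 40 bases. On day 10 passaged cells, with 0 counts of H2AC20, lay under NP-ctrl, with 7, in a pair of single libraries. NP-IWP2 could not be ordered against either arm. It was at 0.486 times NP-ctrl (0.104 to 1.91), and the interval of passaged cells against NP-IWP2 reached 1.58. No difference between the neighbours was tested.

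The promoter is shown because both genes start in it. It is the RefSeq window of H2BC21 (GRCh38.p14, chr1:149886633-149886932, minus strand), from 250 bases before to 50 bases after the start. Capitals mark the octamer ATTTGCAT, the CCAAT box and the TATA box TATAAA on either strand.

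H2BC21 promoter: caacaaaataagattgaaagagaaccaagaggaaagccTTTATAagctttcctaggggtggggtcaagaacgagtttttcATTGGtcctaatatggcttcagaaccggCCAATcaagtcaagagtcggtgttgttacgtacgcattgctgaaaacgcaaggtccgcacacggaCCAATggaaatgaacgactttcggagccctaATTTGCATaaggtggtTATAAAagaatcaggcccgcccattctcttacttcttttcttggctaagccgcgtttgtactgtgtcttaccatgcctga

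The TATA motif near the 3′ end of this window lies on the H2BC21 strand and the one near the 5′ end on the H2AC20 strand. RefSeq windows were matched for 61 of the 66 members. The octamer was in 14 of 17 H2B windows, 11 of 15 H2A windows, 1 of 11 H3 windows and in no H1 or H4 window, against 1.77% of all 35116 windows of the same length. The H3 window with the octamer is listed for H3C4, but it is the same window as that of H2AC7 and lies outside the H3C4 gene of the table, so it is no H3 promoter here. For 6 windows in all, that of H3C4 included, the start of the gene in the table lies outside the window. The CCAAT box was in all H1, H2A, H2B and H3 windows matched and in 3 of 12 H4 windows, against 34.6% of all windows. The TATA motif was in 41 of 61 member windows, against 11.53% of all. A match is a description of the letters and not a site of binding. There were 11 such head-to-head pairs of an H2A and an H2B member.

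**Figure D4:**
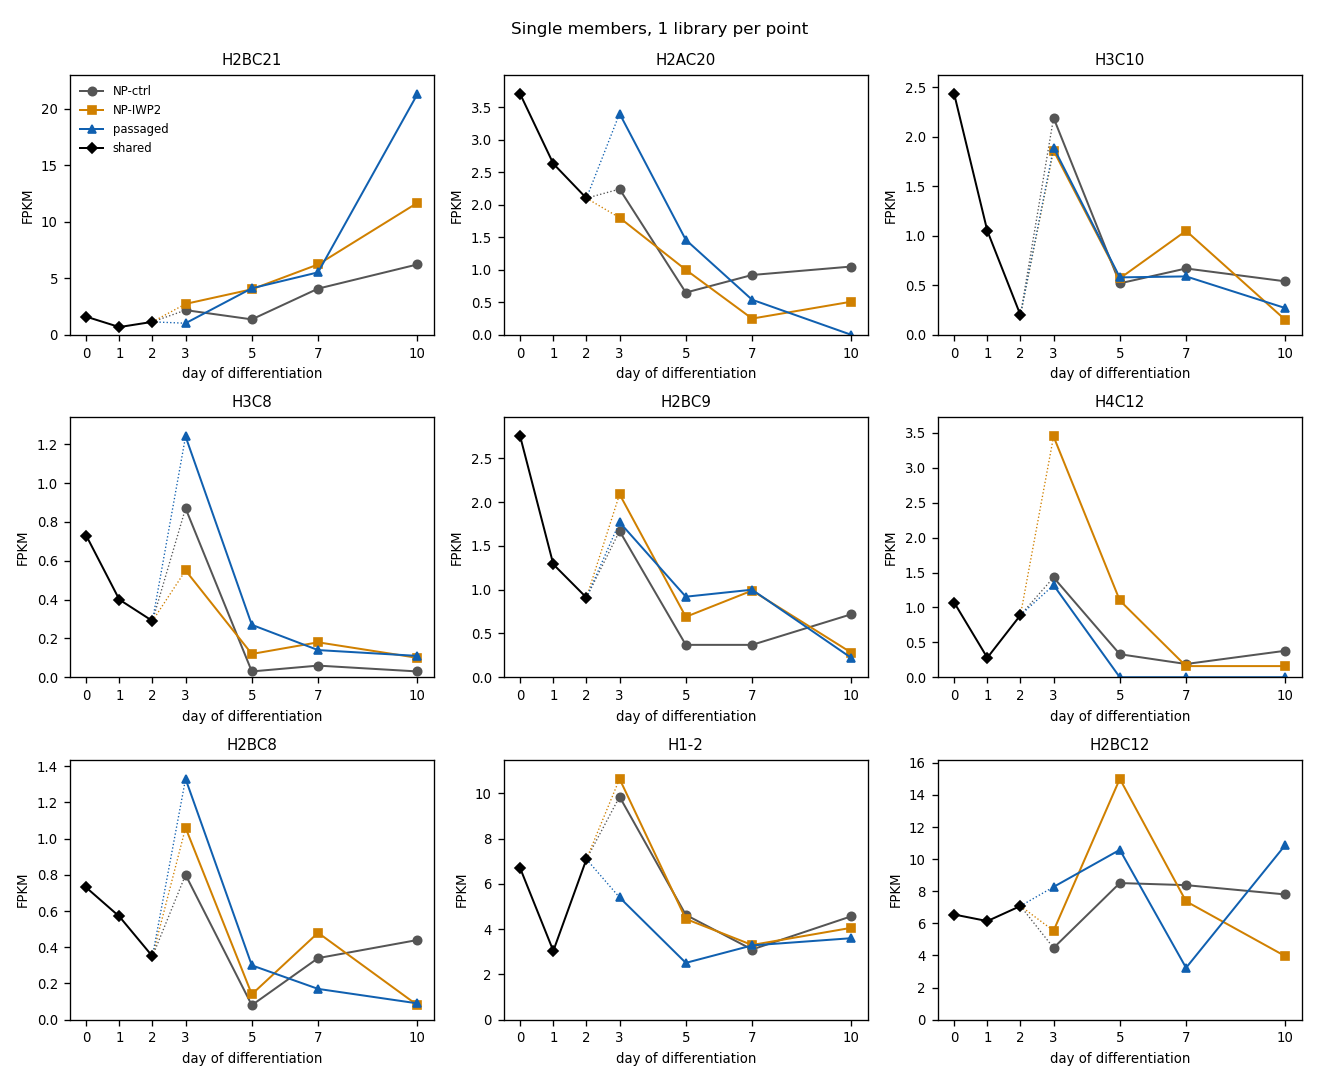
FPKM of 9 members against day of differentiation, with 1 point per library, a linear axis from 0 in each panel and dotted lines from the shared day 2 library to each arm. H2BC21 is at 21.3 FPKM in passaged cells on day 10 where its neighbour H2AC20 is at 0, and H3C10 is at 0.20 FPKM on day 2 and at 1.86 or more on day 3.

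None of the other 5 members of the polyadenylated list was called between day 3 and day 10 in the edgeR test reported, although H1-2 had an unadjusted p of 0.0183. H2BC12 had the highest mean level of all members and no clear course over time. It was at 6.55 FPKM on day 0, 4.47 to 8.27 on day 3 and 3.95 to 10.9 on day 10, with its highest value of 15 in NP-IWP2 on day 5. Its change from day 3 to day 10 was not called (log2 change 0.42, SE 0.49, adjusted p = 0.547). H1-2 had its highest levels on day 3, at 9.85 FPKM in NP-ctrl and 10.6 with IWP2, and was at 5.40 after passaging. On day 10 the 3 arms were at 4.57, 4.06 and 3.6 FPKM (log2 change -0.95, SE 0.35, adjusted p = 0.0517). That H1-2 value lies at the threshold. It was called lower by DESeq2 (adjusted p = 0.0210), by limma (adjusted p = 0.00810) and by edgeR with median-of-ratios size factors (adjusted p = 0.0486) or library totals (adjusted p = 0.0303). With TMM factors, edgeR called it among genes with a mean FPKM of at least 1 (adjusted p = 0.0351) and without passaged day 3 (adjusted p = 0.0319). H2AC6 was at 4.39, 3.29 and 3.46 FPKM on day 3 and at 4.45, 5.45 and 5.67 on day 10, and H2BC5 at 3.6, 2.64 and 2.94 and at 2.90, 2.97 and 2.64, and neither change was called (adjusted p = 0.244 and 0.979). H4C9, which is not on the list but has a gene model 212 bases past its stem-loop, was at 1.85, 2.46 and 1.98 FPKM on day 3 and at 2.18, 2.88 and 3.45 on day 10 (adjusted p = 0.313).

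The third question was whether the arms differed over days 3 to 10 as a whole. Each arm was compared with each other arm over 4 days with day as a block, so that the spread is that of the difference from day to day. In passaged cells against NP-ctrl 0 of 26 members were called, where 4.4% of all genes were, and 1 member had an unadjusted p under 0.05. That member was H3C6, an H3 gene, with a log2 difference of 1.22 (SE 0.38, adjusted p = 0.0962). It was higher in passaged cells on each of the 4 days, with 110 counts against 37 on day 10 and 54 against 18 on day 5, and was called by DESeq2 (adjusted p = 0.0361), which gave an adjusted p for 17 of the members, but not by limma. H2BC21 had a log2 difference of 0.84 (SE 0.42, adjusted p = 0.313). Without day 3, the day on which passaged cells were lower, it was called (log2 difference 1.38, SE 0.30, adjusted p = 0.0183).

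In passaged cells against NP-IWP2 0 of 26 members were called by edgeR or limma, and 0 of the 15 to which DESeq2 gave an adjusted p, where edgeR called 1.33% of all genes, and 2 members had an unadjusted p under 0.05. In NP-IWP2 against NP-ctrl 0 members were called by any of the 3 tools, where edgeR called 0.0189% of all genes, and 0 had an unadjusted p under 0.05. The slopes over days also gave 0 calls by edgeR or limma among 26 members, and 0 by DESeq2 among the 11 members to which it gave an adjusted p. In passaged against NP-ctrl 4 members had an unadjusted p under 0.05 and 0.16% of all genes were called, and in passaged against NP-IWP2 these values were 1 member and 0.00472%. H2BC21 had the lowest p of the members in both, with a slope higher in passaged cells by 0.36 per day on the log2 scale than in NP-ctrl (SE 0.11, adjusted p = 0.180) and by 0.30 than in NP-IWP2 (SE 0.11, adjusted p = 0.607). In counts simulated for passaged against NP-ctrl with the spread of these data, 171 of 200 genes changed by 2 on the log2 scale were recovered and 25 of 200 changed by 1, so the design could miss differences of the latter size. The changed genes were drawn from all genes above a minimum mean count, and no change over days was simulated. Under that minimum lie H1-3, H2AC13, H2AC17, H2BC11, H3C1, H3C3, H4C4, H4C11 and H4C12. Recovery for the histone members as a group was not simulated, so these rates do not describe it.

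The histone genes were also set beside genes of the cell cycle and of histone metabolism. Between day 3 and day 10, 31 of 43 S phase genes were called lower and 1 higher, with a median log2 change of -1.39, and 47 of 54 G2 and mitosis genes were called lower. The median log2 change of the 26 histone members was -1.52, where all genes had 0.04. This is no support for a fall, since 4 of the 26 (H1-3, H2BC8, H3C2 and H3C8) passed the filter only through day 3 libraries. Between passaged cells and NP-ctrl 2 of the 43 S phase genes were called higher. The S phase list includes SLBP, CASP8AP2, NASP and CHAF1B, which also stand in the lists of histone factors below. TYMS, which makes thymidylate for DNA synthesis, was at 28.49 to 32.85 FPKM on day 3 and 7.55 to 12.02 on day 10. Over the 15 libraries, the log2 of summed FPKM of all 66 members had a Pearson r of 0.22 (Spearman rho 0.21) with that of the S phase genes, and -0.14 without the 2 libraries farthest from the median S phase level. Of the 11 members with over 3 counts in every library, 4 had a positive r. The summed FPKM of the 60 members outside the polyadenylated list had a Pearson r of 0.67 (Spearman rho 0.65) with the S phase genes, and r was 0.44 without the same 2 libraries. With the G2 and mitosis genes r was 0.73 (rho 0.70), and 0.85 without 2 libraries. For the 6 listed members r was -0.46 (rho -0.38), and -0.59 without 2 libraries. H2BC21 alone had an r of -0.83 (rho -0.81). The libraries share a time course and 1 cell source, so these values describe it and carry no p. Step by step, the 60 members moved in the same direction as the S phase genes in 8 of 14 steps between neighbouring days, of which 3 share the day 2 library. Per 100 FPKM of S phase genes, these members held 1.42 FPKM in the lowest library, passaged day 5, and 4.99 in the highest, passaged day 10.

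Replication-independent variants, most of which are made from polyadenylated transcripts throughout the cell cycle or in cells at rest, were far more abundant, with 361 to 1174 summed FPKM over 11 genes. Of these, 5 fell from day 3 to day 10, where 17.1% of all genes fell, namely H2AX, H2AZ1, H1-10, CENPA and MACROH2A2. CENPA also stands in the list of G2 and mitosis genes. H2AX, which marks DNA breaks when phosphorylated, changed by -2.02 on the log2 scale (SE 0.27, adjusted p = 0.000267) and H2AZ1 by -1.50 (SE 0.24, adjusted p = 0.000768). The replacement H3.3 genes did not pass the test, with log2 changes of 0.14 for H3-3A and -0.49 for H3-3B.

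Of 17 genes that make and process histone transcripts, 5 fell between day 3 and day 10, where 17.1% of all genes did. They were the cleavage factors CSTF2, CPSF3 and SYMPK, the decay factor UPF1 and the kinase CDK2, with log2 changes from -0.73 to -0.56. SLBP, which binds the stem-loop, was at 30.44, 27.53 and 57.11 FPKM on day 3 and at 52.64, 48.80 and 46.15 on day 10 (log2 change 0.52, adjusted p = 0.0927). NPAT had a log2 change of 0.44 (adjusted p = 0.136) and CASP8AP2, another factor of the histone locus body, of 0.04 (adjusted p = 0.945). Of 18 histone chaperones 8 fell, against the same 17.1%, among them CHAF1A and CHAF1B, the large subunits of the assembly factor that follows the replication fork, with log2 changes of -2.39 (SE 0.33, adjusted p = 0.000373) and -2.26 (SE 0.38, adjusted p = 0.00109).

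Structured RNAs that lack a poly(A) tail were followed as a possible guide to how much unpolyadenylated RNA each library held, a use that was not tested. Of 35 such genes 17 were at 0 in every library, among them RN7SK, RN7SL2, RMRP and RPPH1, which are abundant in cells. RN7SL1, the RNA of the signal recognition particle, was the main exception, at 40 FPKM on day 0, 162.02 on day 2 and 70.77 to 121.74 on day 10. On day 3 it was at 61.73 FPKM in NP-ctrl, 115.73 with IWP2 and 209.98 after passaging. The 35 genes together were at 66.98, 119.98 and 213.55 FPKM in the same order, so RN7SL1 made up most of the sum. The r of the 60 members with RN7SL1 was 0.35 (rho 0.31) over the 15 libraries and 0.10 without the 2 farthest, and histone levels were close in the 3 day 3 libraries while RN7SL1 varied from 61.73 to 209.98 FPKM. The part of library preparation in the histone levels was not tested beyond these values.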

How the data were processed

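Counts and FPKM for 15 single libraries were taken from 1 table. Per the labels, the authors' processing notes name cutadapt 1.9.1, HISAT2 2.0.1, HTSeq 0.6.1 and hg38. The library kit named is for long reads, and whether the deposited counts come from long or short reads was not settled, so levels per length carry that doubt. The deposited FPKM equalled the counts scaled by total counts and exonic length to within 0.005. Some exonic lengths come from an annotation older than GENCODE release 44, in which 43 members had identical coordinates.

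Members, lists and tests were chosen with earlier results of these data known. Tests used edgeR 4.0.16 in R 4.3.3 (TMM, quasi-likelihood, 12 libraries of days 3 to 10) on 21206 genes with at least 1 FPKM in at least 1 library, called at an adjusted p under 0.05. The standard error is the size of the log2 change divided by the square root of F. Without replicate cultures, p-values measure only spread over days or arms. DESeq2 1.42.0, limma 3.58.1 on log2(FPKM + 1) with a pseudocount of 1, other scalings and filters, and each day or library left out were alternatives, of which leaving out single libraries was chosen after seeing the data. Single libraries were compared by differences and exact 95% intervals (scipy 1.17.1).

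Named were the 3 members of each class with the highest mean FPKM, the 6 known to give polyadenylated transcripts, up to 5 per direction of each test, the identical copies and a set of cell cycle, histone and structured RNA genes. Other genes were named after their values were seen, as were the 5 pairs of libraries described in counts.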

Additional observations from a re-analysis of the deposited data

How the results depend on the processing

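With DESeq2 and without day 3, 1 member was called in passaged against NP-ctrl (0 in the test reported), and leaving out each day gave 0 to 1. The other arm and slope comparisons gave 0 calls under all alternatives run, DESeq2 giving an adjusted p for 11 to 26 members. For day 10 against day 3, limma called 10 members where edgeR called 6, and leaving out days or libraries gave 3 to 6, the 3 being without NP-IWP2 day 3 or passaged day 10. Days 3 and 10 could not be left out of that comparison. H2BC21 had 1 stronger value, a log2 difference of 1.3786 in passaged against NP-ctrl without day 3. Differences past the limit in the 5 pairs of libraries numbered 18, and 64 with a pseudocount of 0.1, 48 on TPM, 9 among members with a mean FPKM of at least 1 and 0 at a limit of 2. The pseudocount and the larger TPM scale act by construction on members near 1 FPKM. The median summed level of day 3 over days 5 and 7 was 1.74 times, 2.23 without H2BC12 and 2.80 without the 6 polyadenylated members. Day 2 over day 0 was 0.567, with 0.453 on member counts over total counts, 0.507 without H2BC12 and 0.443 without the 6. Passaged over NP-ctrl on day 3 was 0.961, with 1.17 on TPM and 1.06 without the 6. On day 10 it was 1.55, with 1.81 on member counts over total counts, 1.27 on TPM, 1.75 with TMM factors and 1.22 without the 6. The causes of these shifts were not tested. The arm comparisons had day as a block throughout, and the labels give no replicate numbers by which to pair samples otherwise. Depth limits most members, since 21 of 66 never exceeded 3 counts.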
